A study of Mus musculus with 18 samples.

Results

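The calcium, calcineurin and NFAT genes described here are 10 genes chosen by symbol, *Stim1*, *Stim2*, *Orai1*, *Ppp3ca*, *Ppp3cb*, *Ppp3cc*, *Nfatc1*, *Nfatc2*, *Nfatc3* and *Rcan1*, out of 45706 genes in the deposited tables. All 10 were among the 12255 genes that passed the filter on low counts and were tested. Their mean normalized counts over all libraries ran from 362.4 for *Rcan1* to 7410 for *Nfatc3* and the lowest value of any of them in any library was 270.9.

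The libraries were made from purified CD8+ T cells of OT-I mice, a transgenic line with 1 T cell receptor specific for ovalbumin, cultured with IL-7 and IL-15. Repeat peptide stimulated cells received 10 ng/ml of the ovalbumin peptide every day for 5 days, as an in vitro model of T cell exhaustion without other cells. Per the methods of the study, the peptide also stayed in the medium of these cells during the later treatment. Single peptide stimulated cells had the peptide for 48 hours and were then washed and kept without it. From day 5 both kinds of cells were given 1 µM ibrutinib, an irreversible inhibitor of the kinase BTK, or its solvent DMSO for 3 days, and live cells were lysed on day 8. There were 4 libraries of repeat peptide cells with DMSO, 5 of repeat peptide cells with ibrutinib, 5 of single peptide cells with DMSO and 4 of single peptide cells with ibrutinib, at 23445922 to 51995372 expected counts each. Libraries of different groups carry the same entry in the genotype field of the labels. These 6 entries were read here as naming the experiment a culture came from, lettered A to F, although no label says so. All 4 groups are present in A to D, while E consists of 1 library of repeat peptide cells with ibrutinib and F of 1 library of single peptide cells with DMSO. The strain entry reads wild type for every library, whereas the genotype entry for B to E carries the name of a btk knockout. The genotype entries of A (INHB, left over) and F (PKC igoni) do not name btk. *Btk* itself had 0 to 27 expected counts per library, too few to tell the genotype from its level. No label states which mice were shared, so p-values measure the spread between cultures.

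Markers of CD8+ T cells were high in every library, with summed TPM (a level scaled for transcript length and depth) of 2730 to 4060 over 6 genes. Between repeat and single peptide DMSO libraries, genes within this sum ran opposite ways. *Cd4* did not exceed 0.17 TPM. Summed over each list, markers of B cells stayed at or below 7.1 TPM in each library, those of myeloid and dendritic cells at or below 9.24 and those of erythroid cells at or below 1.84. The sum of the 3 markers of CD4 T cells was 15.4 to 20.8 TPM in repeat peptide DMSO libraries, 5.38 to 16.1 in repeat peptide ibrutinib libraries and 1.87 to 12.3 in single peptide libraries of either treatment, but its members ran opposite ways. *Zbtb7b* was at 15.3 to 20.7 TPM in repeat peptide DMSO libraries and at 1 to 5.6 TPM in single peptide DMSO libraries, and *Foxp3* was at most 0.08 TPM in the former and at 0.77 to 5.55 TPM in the latter. The sum of the 2 markers of NK cells was 2.64 to 25.6 TPM in repeat peptide libraries of either treatment and 0.59 to 2.73 in single peptide libraries, with *Klrb1c* alone at 2.64 to 25.2 TPM in repeat peptide libraries. The part of these lists in the differences below was not tested, and in bulk RNA fewer cells of a type and less RNA per cell cannot be told apart.

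As background, engagement of the T cell receptor empties calcium from the endoplasmic reticulum. STIM proteins sense that loss and open ORAI channels in the plasma membrane, and the calcium that enters activates the phosphatase calcineurin through calmodulin. Calcineurin removes phosphates from NFAT transcription factors, which then move to the nucleus. Kinases such as DYRK and GSK3 return NFAT to the cytoplasm, and RCAN1 binds and restrains calcineurin. NFAT acting with its partner AP-1 drives cytokine genes, and NFAT acting without it has been tied to the exhausted state of T cells. Calcium and protein activity, through which these steps act, were not measured here.

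Which of these genes differed between repeat and single peptide stimulated cells was asked first, with DMSO in both. Of the 10 genes, 5 passed the thresholds (adjusted p below 0.05, mean normalized count of at least 50 and absolute log2 fold change above 0.2), which are met by 47.0% of all tested genes in this comparison. *Nfatc1* and *Orai1* rose, and *Nfatc2*, *Nfatc3* and *Stim1* fell. Among all genes 22.8% were higher and 24.2% lower, so that 5 of 10 is close to the background and is not a result about the family. The median absolute log2 fold change was 0.29 over the 10 genes and 0.48 over all tested genes.

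For ibrutinib against DMSO, the counts of called members were close to the share of all genes and are not a result about the family. In repeat peptide cells 1 of the 10 genes, *Stim1*, was called against 5.92% of all genes (4.01% higher and 1.92% lower), and in single peptide cells 0 of 10 were called against 3.04% (0.351% higher and 2.69% lower). Without adjustment, 3 and 1 of the 10 genes had a p below 0.05 in these comparisons, beside 21.6% and 13.5% of all tested genes. The DESeq2 Wald test called 2 of the 10 in repeat peptide cells, *Orai1* and *Stim1*, where it called 1107 of all genes against 726 in the edgeR fit. In single peptide cells it called 0 of 10, and 602 of all genes against 373. Between repeat and single peptide cells that both had ibrutinib, 3 of 10 were called (*Nfatc3*, *Stim1* and *Ppp3cc*), against 38.4% of all genes (18.7% higher and 19.6% lower). Between repeat peptide cells with ibrutinib and single peptide cells with DMSO, 2 of 10 were called (*Nfatc1* and *Stim1*), against 32.9% (16.7% higher and 16.2% lower). These comparisons share libraries, so their values for a gene are not independent of each other.

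**Figure D1:**
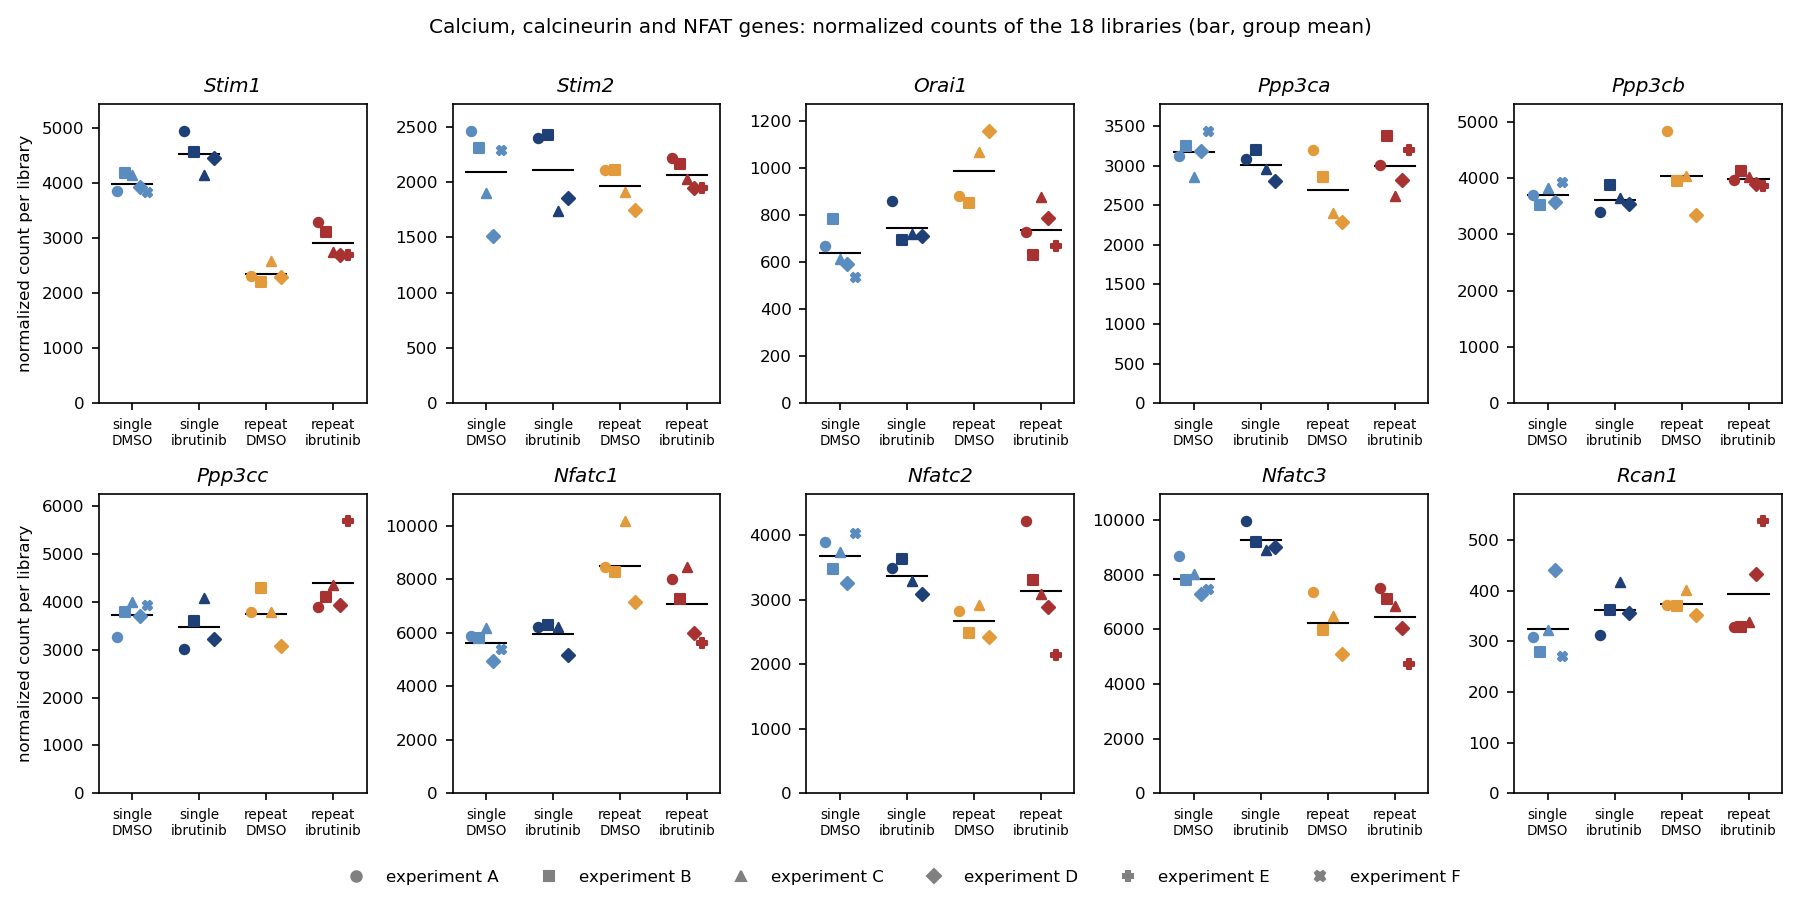
Normalized counts (y axis, from 0) of the 10 genes in each of the 18 libraries, by group on the x axis; each point is a library, its shape gives the experiment, and the bar is the group mean. All 4 *Stim1* points of repeat peptide DMSO cells (2214 to 2591) lie below all 5 of repeat peptide ibrutinib cells (2694 to 3304) and all 5 of single peptide DMSO cells (3839 to 4185).

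*Stim1* (ENSMUSG00000030987, plus strand, chr7:102267806-102437319, build GRCm38) encodes the calcium sensor of the endoplasmic reticulum, and it had the largest difference among the 10 genes. Its normalized counts in single peptide DMSO cells were 3869, 4185, 4161, 3927 and 3839 in experiments A, B, C, D and F. In repeat peptide DMSO cells they were 2308, 2214, 2591 and 2297 in experiments A to D. The groups did not overlap, and the gene was lower in repeat peptide cells in 4 of 4 experiments. The log2 fold change was -0.76 (SE 0.084, 95% interval -0.94 to -0.59, adjusted p = 7.37e-07), a level 1.7-fold lower, from 3996 ± 165 (SD, n = 5) to 2352 ± 164 (SD, n = 4).

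With ibrutinib the repeat peptide cells had *Stim1* counts of 3304, 3113, 2757, 2696 and 2694 in experiments A, B, C, D and E. All of these lie above the 4 libraries with DMSO, as holds for 10.1% of all tested genes in this comparison. The log2 fold change was 0.31 (SE 0.083, adjusted p = 0.0323), 1.24-fold higher, with the 4 paired experiments at 0.52, 0.49, 0.09 and 0.23. The call was lost when *Stim1* was tested without the low count filter (adjusted p = 0.0698) or in a fit of only these 2 groups (0.0839), and without any of 5 single libraries, A, B or D of the DMSO group or A or B of the ibrutinib group (0.0627 to 0.0852).

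In single peptide cells *Stim1* stood at 4949, 4571, 4150 and 4458 with ibrutinib in experiments A to D. The group overlapped that with DMSO, and the log2 fold change of 0.18 (95% interval 0.01 to 0.35, adjusted p = 0.33) did not pass. The difference between the ibrutinib effects of repeat and single peptide cells was 0.13 (95% interval -0.12 to 0.37, adjusted p = 0.797). Repeat peptide cells with ibrutinib still had less *Stim1* than single peptide cells, by -0.46 against single peptide DMSO cells (adjusted p = 0.000214) and by -0.64 against single peptide ibrutinib cells (adjusted p = 6.83e-06). The normalized counts did not overlap in either comparison.

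*Stim2* (ENSMUSG00000039156, plus strand, chr5:53998499-54121057), the sensor that responds to smaller losses of stored calcium, passed the test in 0 of the 6 comparisons. Group means lay between 1966 ± 172 in repeat peptide DMSO cells (SD, n = 4) and 2105 ± 360 in single peptide ibrutinib cells (SD, n = 4), and the groups overlapped. The log2 fold change of repeat against single peptide was -0.09 with DMSO, with a 95% interval of -0.37 to 0.19. As a level per length, *Stim1* made up 67.3 to 77.4% of the summed TPM of *Stim1* and *Stim2* in single peptide DMSO libraries. It made up 53.6 to 63.0% in repeat peptide DMSO libraries and 62.0 to 64.8% in those with ibrutinib.

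*Orai1* (ENSMUSG00000049686, plus strand, chr5:123015074-123030456) encodes the pore of the calcium channel that STIM1 opens, and it moved the opposite way to *Stim1*. Its normalized counts in single peptide DMSO cells were 671.4, 783.2, 615.6, 593.3 and 538.1 in experiments A, B, C, D and F. In repeat peptide DMSO cells they were 882.8, 853.0, 1069 and 1158 in experiments A to D. All 4 of these exceed all 5 single peptide libraries, a separation that holds for 41.4% of tested genes. The log2 fold change was 0.63 (SE 0.130, 95% interval 0.36 to 0.90, adjusted p = 0.000531), 1.55-fold higher, although within experiment B it was only 0.12 against 0.39, 0.79 and 0.96 in A, C and D.

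With ibrutinib the repeat peptide libraries had 730.1, 629.1, 877.3, 786.6 and 671.2 *Orai1* counts in experiments A, B, C, D and E. *Orai1* was lower than with DMSO in 4 of 4 experiments, with a log2 fold change of -0.42 (SE 0.130, 95% interval -0.69 to -0.15). The adjusted p of 0.0592 lies just above the threshold, and in the DESeq2 Wald test it was 0.0313. It also passed without library B of the DMSO group (0.0468) or without library C of the ibrutinib group (0.0311). In 16 of the 18 fits that left out a library it did not pass, with adjusted p up to 0.239.

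Single peptide cells with ibrutinib had *Orai1* counts of 859.0, 696.9, 719.6 and 713.8 in experiments A to D, above their DMSO partner in 3 of 4 experiments. The ibrutinib effect there was 0.22 on the log2 scale (95% interval -0.05 to 0.50, adjusted p = 0.507). The difference between the ibrutinib effects was -0.65 (SE 0.184, 95% interval -1.03 to -0.26), the largest interaction estimate of the 10 genes, and had an adjusted p of 0.106. In that interaction test 0 of the 10 genes and 1.26% of all genes were called (1.04% higher and 0.212% lower), and 1 of the 10, *Orai1*, had an unadjusted p below 0.05, as did 11.4% of all genes. Against single peptide ibrutinib cells, repeat peptide ibrutinib cells had a log2 fold change of -0.02 (95% interval -0.29 to 0.26), a difference whose sign changed with the normalization.

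**Figure D2:**
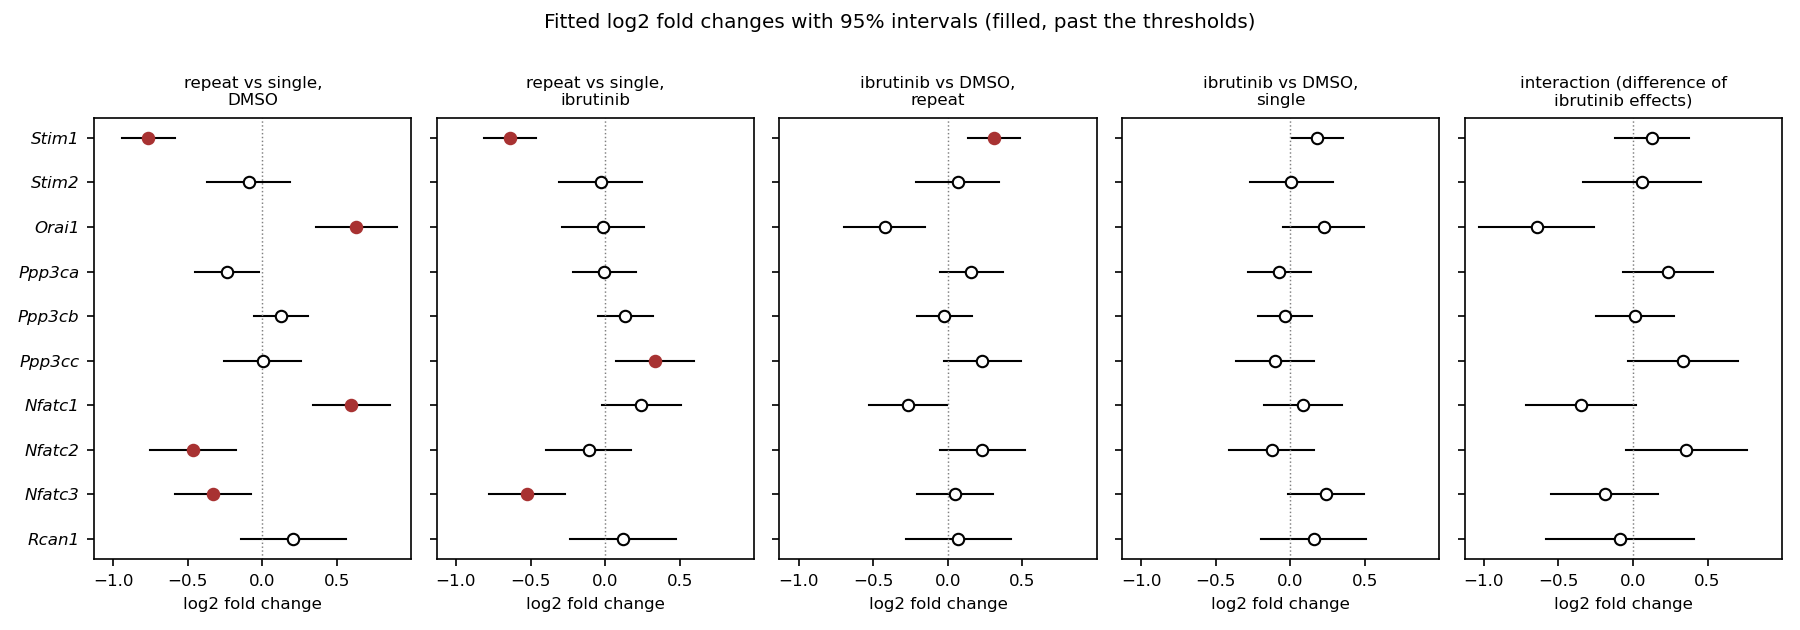
Fitted log2 fold changes (x axis) with 95% intervals (lines) of the 10 genes (rows) in 5 comparisons (panels); filled points passed the thresholds and open points did not. For repeat against single peptide with DMSO, *Stim1* lies at -0.76 and *Orai1* at 0.63, and with ibrutinib the *Orai1* point lies at -0.02.

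The other ORAI genes put the rise of *Orai1* in proportion, since ORAI proteins can form mixed channels. *Orai2* normalized counts were 7022 to 10620 in single peptide DMSO libraries and 2086 to 2879 in repeat peptide DMSO libraries. They fell 3.45-fold (log2 fold change -1.79, SE 0.175, adjusted p = 1.99e-07). *Orai3* fell by 0.25 on the log2 scale (adjusted p = 0.0181). With ibrutinib, *Orai2* in repeat peptide cells was 1.8-fold higher than with DMSO (log2 fold change 0.85, SE 0.170, adjusted p = 0.00509).

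Per length, *Orai1* therefore held 12.9 ± 1.84% of the summed TPM of the 3 ORAI genes in single peptide DMSO libraries (SD, n = 5). It held 36.7 ± 6.45% in repeat peptide DMSO libraries (SD, n = 4), with single libraries at 30.8, 33.2, 37.4 and 45.5% against 10.1 to 14.9%. In repeat peptide ibrutinib libraries the share was 22.3 ± 5.30% (SD, n = 5), and every one of these, at 15.2 to 27.7%, lay between the other groups without overlap. Single peptide ibrutinib libraries stood at 11.3 to 14.2%. The share of *Orai2* ran the other way, from 66.5 to 74.7% in single peptide DMSO libraries to 29.6 to 45.6% in repeat peptide DMSO libraries and 46.5 to 64.4% in repeat peptide ibrutinib libraries.

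**Figure D3:**
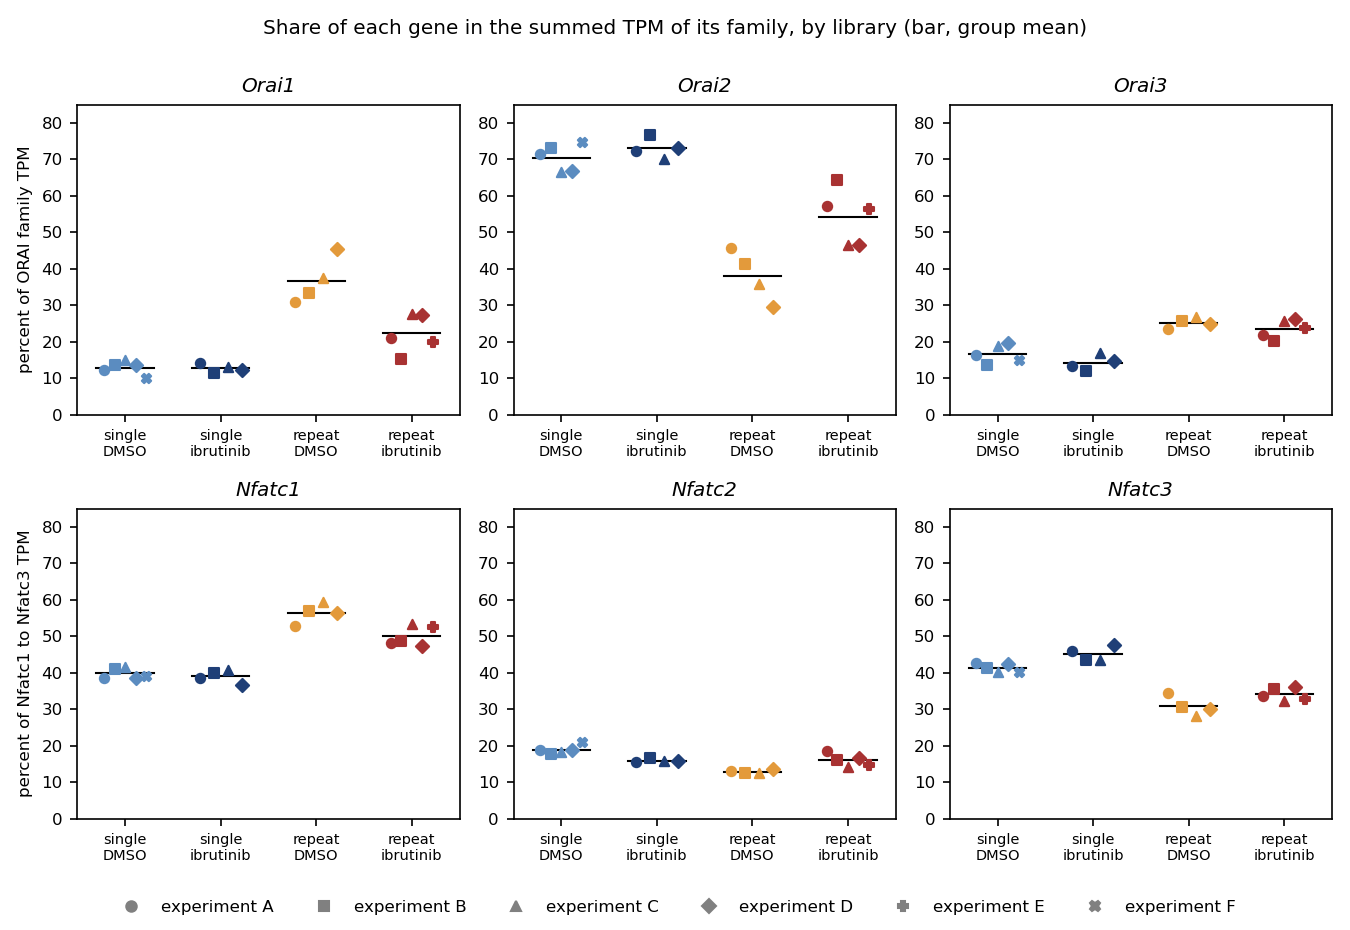
Share of *Orai1*, *Orai2* and *Orai3* in their summed TPM and of *Nfatc1*, *Nfatc2* and *Nfatc3* in theirs (y axis, percent) in each library, by group on the x axis; point shape gives the experiment and the bar the group mean. *Orai1* is at 30.8 to 45.5% in repeat peptide DMSO libraries and at 10.1 to 14.9% in single peptide DMSO libraries, and *Nfatc1* is at 52.7 to 59.4% and 38.6 to 41.6%.

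The 3 catalytic subunits of calcineurin changed little. *Ppp3ca* (ENSMUSG00000028161, plus strand, chr3:136670124-136937727), *Ppp3cb* (ENSMUSG00000021816, minus strand, chr14:20499364-20546573) and *Ppp3cc* (ENSMUSG00000022092, minus strand, chr14:70217865-70289471) encode its alpha, beta and gamma catalytic chains. In repeat against single peptide cells with DMSO their log2 fold changes were -0.24, 0.12 and 0.00, with adjusted p of 0.0555, 0.243 and 0.994. *Ppp3ca* passed when the experiment was added as a block (log2 fold change -0.22, adjusted p = 0.0272). It also passed without repeat peptide library A (adjusted p = 0.0112) or without single peptide library C (0.0375). In 16 of the 18 fits that left out a library it did not pass, with adjusted p up to 0.213. Its groups overlapped at 2295 to 3195 and 2860 to 3435 normalized counts. Ibrutinib gave 0.16, -0.02 and 0.23 in repeat peptide cells and -0.07, -0.04 and -0.10 in single peptide cells, and none of these 6 values passed.

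*Ppp3cc*, the isoform best known from testis, had the highest level per length of the 3 genes, with 75.4 ± 12.2 TPM in single peptide ibrutinib libraries (SD, n = 4) and 104 ± 10.2 TPM in repeat peptide ibrutinib libraries (SD, n = 5). It made up 47.6 to 62.8% of the summed TPM of the catalytic subunits over all libraries. *Ppp3cb* made up 24.3 to 37.9% and *Ppp3ca* 12.2 to 17.8%. *Ppp3cc* was the only one of the 3 to pass in any of the 6 comparisons, at 0.34 on the log2 scale (SE 0.124, adjusted p = 0.0353) in repeat against single peptide cells with ibrutinib. Its counts there were 3884, 4102, 4353, 3939 and 5682 in experiments A, B, C, D and E against 3005, 3592, 4086 and 3227 in A to D. The groups overlapped, library E stood apart, and without that library the value was 0.23 (adjusted p = 0.101). The call was also lost in a fit of these 2 groups alone (0.0517) and without ibrutinib library C of the repeat or A, B or D of the single peptide cells (0.0553 to 0.0970).

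The 3 NFAT genes that calcineurin acts on did not move together. *Nfatc1* (ENSMUSG00000033016, minus strand, chr18:80606205-80713071), whose short form is known to be induced by NFAT itself in activated T cells, was higher in repeat peptide DMSO cells. Its normalized counts were 8462, 8274, 10170 and 7148 in experiments A to D, against 5871, 5802, 6169, 4934 and 5404 in A, B, C, D and F with a single peptide. The groups did not overlap, all 4 experiments showed the rise (0.51 to 0.72), and the log2 fold change was 0.60 (SE 0.124, 95% interval 0.34 to 0.86, adjusted p = 0.000566), 1.51-fold.

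With ibrutinib, repeat peptide libraries had *Nfatc1* counts of 8019, 7246, 8454, 6003 and 5633 in experiments A, B, C, D and E. They were below their DMSO partner in 4 of 4 experiments, by -0.08, -0.19, -0.27 and -0.25, but the groups overlapped widely. The fitted change was -0.27 on the log2 scale (95% interval -0.53 to -0.01, adjusted p = 0.216). Against single peptide DMSO cells *Nfatc1* was still higher by 0.33 (adjusted p = 0.0351), a call lost in 2 of the other fits (0.052 without the low count filter and 0.0618 with only these groups) and without any of 4 single libraries, A or C of the ibrutinib group or D or F of the DMSO group (0.0703 to 0.112). Against single peptide ibrutinib cells, at 6208, 6296, 6202 and 5171, it was higher by 0.24 (adjusted p = 0.124). That value passed with the experiment as a block (0.31, adjusted p = 0.00126), a fit in which libraries E and F carry no weight, and without library E (0.32, adjusted p = 0.0408). In 17 of the 18 fits that left out a library it did not pass, with adjusted p up to 0.298.

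*Nfatc2* (ENSMUSG00000027544, minus strand, chr2:168476410-168601657), the NFAT protein already abundant in resting T cells, moved in the direction opposite to *Nfatc1*. Normalized counts were 3895, 3475, 3733, 3263 and 4036 in single peptide DMSO cells of experiments A, B, C, D and F. In repeat peptide DMSO cells they were 2833, 2478, 2916 and 2430 in A to D. The groups did not overlap, and the paired differences were alike at -0.46, -0.49, -0.36 and -0.42. The fitted log2 fold change was -0.47 (SE 0.137, 95% interval -0.75 to -0.18, adjusted p = 0.00808), 1.38-fold lower.

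Repeat peptide libraries with ibrutinib held 4218, 3308, 3087, 2892 and 2143 *Nfatc2* counts in experiments A, B, C, D and E. Experiments A to D were all above their DMSO partner, by 0.57, 0.42, 0.08 and 0.25 on the log2 scale, while library E, which has no partner, was the lowest of the group. The fit without a block gave 0.23 (95% interval -0.06 to 0.52, adjusted p = 0.341), and adding the experiment as a block, which leaves E without weight, gave 0.33 (adjusted p = 0.013). With that block 2 of the 10 genes, *Nfatc2* and *Stim1*, were called in this comparison, where 1694 of all tested genes were called with the block and 726 without. The difference between the ibrutinib effects of repeat and single peptide cells was 0.36 for *Nfatc2* (adjusted p = 0.518) and 0.42 with the block (adjusted p = 0.043, with 679 of all genes called in place of 154). Against single peptide DMSO cells, repeat peptide ibrutinib cells stood at -0.23 (adjusted p = 0.162), and at -0.35 without their library A (adjusted p = 0.0231). In 17 of the 18 fits that left out a library this value did not pass, with adjusted p up to 0.379.

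*Nfatc3* (ENSMUSG00000031902, plus strand, chr8:106058840-106130537) was also lower in repeat peptide cells. Its counts in experiments A to D were 7365, 5963, 6487 and 5087 with DMSO, against 8689, 7800, 8005, 7273 and 7460 in single peptide DMSO cells of A, B, C, D and F. Library A of the repeat peptide cells overlaps the single peptide range. The log2 fold change was -0.33 (SE 0.122, adjusted p = 0.0276), lower in 4 of 4 experiments, and the call was lost without library B or D of the repeat peptide group or A of the single peptide group (adjusted p 0.0637 to 0.113).

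With ibrutinib in both, the fall of *Nfatc3* was -0.52 (SE 0.121, 95% interval -0.78 to -0.27, adjusted p = 0.00194). The counts were 7495, 7091, 6837, 6060 and 4726 in experiments A, B, C, D and E for repeat peptide and 9952, 9188, 8896 and 9000 in A to D for single peptide, without overlap, as for 34.3% of tested genes. In single peptide cells alone, all 4 ibrutinib libraries lay above all 5 DMSO libraries, which holds for 6.39% of tested genes, and the log2 fold change of 0.24 did not pass (95% interval -0.01 to 0.49, adjusted p = 0.407). Repeat peptide cells with ibrutinib against single peptide cells with DMSO gave -0.28 (adjusted p = 0.058), and -0.21 with the experiment as a block (adjusted p = 0.0243). It also passed without repeat peptide DMSO library A or ibrutinib library A or B (adjusted p 0.0375 to 0.0496). It did not pass in 15 of the 18 fits that left out a library, with adjusted p up to 0.137. In that comparison *Stim1* was the only one of the 10 genes with no overlap, against 19.9% of tested genes.

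As a share of the summed TPM of the 3 NFAT genes, *Nfatc1* went from 39.8 ± 1.45% in single peptide DMSO libraries (SD, n = 5) to 56.3 ± 2.76% in repeat peptide DMSO libraries (SD, n = 4). The share of *Nfatc3* was 41.3 ± 1.20% in the former and 30.8 ± 2.61% in the latter. That of *Nfatc2* was 18.9 ± 1.22% and 12.9 ± 0.55%. In repeat peptide ibrutinib libraries the shares were 50% ± 2.76, 34% ± 1.61 and 16% ± 1.72 for *Nfatc1*, *Nfatc3* and *Nfatc2* (SD, n = 5). Shares of *Nfatc1* with DMSO (52.7 to 59.4%) and with ibrutinib (47.4 to 53.4%) overlapped only through library C with ibrutinib and library A with DMSO, and those of *Nfatc2* (12.4 to 13.6% and 14.2 to 18.5%) did not. No test was run on shares. Of the remaining NFAT genes, *Nfatc4* had at most 3 expected counts per library, and *Nfat5*, which responds to osmotic stress and does not bind calcineurin, rose 1.85-fold with repeat peptide (log2 fold change 0.89, adjusted p = 0.00844).

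*Rcan1* (ENSMUSG00000022951, minus strand, chr16:92391953-92470867) encodes the inhibitor of calcineurin, and its transcript from an inner start is a textbook target of NFAT. It was the least abundant of the 10 genes, at 5.92 ± 0.683 TPM in single peptide DMSO libraries (SD, n = 5) and 7.82 ± 0.818 TPM in repeat peptide DMSO libraries (SD, n = 4). The upstream sequences of its 2 RefSeq starts (GRCm38.p6, minus strand, the 250 bases before each start, 5′ to 3′) are shown because the deposited gene lengths bear on which start was in use. Capitals mark GGAAA, the core bound by NFAT, on either strand (TTTCC on the strand shown).
Outer start, chr16:92466170-92466419: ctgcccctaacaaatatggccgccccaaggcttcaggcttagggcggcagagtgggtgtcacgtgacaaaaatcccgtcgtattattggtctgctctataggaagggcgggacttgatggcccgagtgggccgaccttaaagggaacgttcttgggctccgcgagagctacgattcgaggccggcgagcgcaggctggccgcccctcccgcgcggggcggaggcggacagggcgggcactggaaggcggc
Inner start, chr16:92400079-92400328: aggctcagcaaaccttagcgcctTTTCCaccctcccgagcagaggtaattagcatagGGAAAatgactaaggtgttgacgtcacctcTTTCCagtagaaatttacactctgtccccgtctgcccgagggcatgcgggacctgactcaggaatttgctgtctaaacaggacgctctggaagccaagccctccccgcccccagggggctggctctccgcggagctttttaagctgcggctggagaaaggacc
The outer window holds 0 matches to GGAAA and the inner window holds 3. Over all 32817 promoter windows of this length in the same table, 55.6% hold at least 1 match on either strand. TGANTCA, a form of the AP-1 site, has 0 matches in the outer and 1 in the inner window and is found in 6.75% of all windows. A match is a description of letters and not a bound site.

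The tables list 2 transcripts of *Rcan1*, and the deposited gene length is their mean weighted by estimated abundance. The length was 2324 bases in 17 of 18 libraries, to within 0.5 bases, which is the GENCODE M21 length of the transcript from the outer start. The listed transcript from the inner start has 2190 bases. The length fell short of 2324 only in repeat peptide DMSO library D, at 2320.6. Lengths in M21 need not equal those of the annotation the authors used, since among genes with 1 listed transcript 86.3% have the same length in both.

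Expression of *Rcan1* passed in 0 of the 6 comparisons. Counts were 308.9, 278.0, 321.2, 440.6 and 270.9 in single peptide DMSO cells (A, B, C, D and F) and 372.2, 370.2, 400.6 and 352.2 in repeat peptide DMSO cells (A to D). Experiments A, B and C rose by 0.27 to 0.41 on the log2 scale and D fell by 0.32, and the fitted change was 0.21 (SE 0.168, 95% interval -0.15 to 0.56, adjusted p = 0.315), and 0.34 without single peptide library D (adjusted p = 0.076). With ibrutinib the repeat peptide libraries had 328.7, 327.6, 337.9, 432.0 and 536.7 counts (A, B, C, D and E). The ibrutinib effect was 0.07 (95% interval -0.28 to 0.42), 3 of 4 experiments were lower, and it took the opposite sign with the experiment as a block, at -0.08 (adjusted p = 0.747), a setting that gives no weight to library E, the highest of the group. Against single peptide DMSO cells the repeat peptide ibrutinib cells stood at 0.28 (adjusted p = 0.18), and at 0.42 without single peptide library D (adjusted p = 0.0374). In 17 of the 18 fits that left out a library this value did not pass, with adjusted p up to 0.482.

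The other promoters of members in the RefSeq table differ in the same letters. The windows of *Nfatc2* hold 3 matches to GGAAA before its outer start and 1 before its inner start, *Ppp3cb* has 3, and *Nfatc3* has 1 and 0 before its 2 starts. Those of *Orai1*, *Stim1* and *Stim2* hold 0, and their GC content is 70.8, 78.4 and 74.8%. No TGANTCA was found in any of these windows. The window of *Orai1* overlaps an annotated exon of *Gm2479*, and those of *Stim1* and *Stim2* overlap annotated exons of the same gene. These windows are thus partly transcribed sequence, whereas those of the other members overlap no annotated exon.

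Gene length was tested for the 6 members with more than 1 listed transcript and a varying length (*Nfatc1*, *Nfatc2*, *Ppp3ca*, *Ppp3cb*, *Orai1* and *Stim2*). None passed in any of 5 comparisons with limma over 8691 such genes, of which 0.023% passed for ibrutinib in repeat peptide cells, 0% for ibrutinib in single peptide cells, 1.28% for repeat against single peptide with DMSO, 0.150% with ibrutinib and 0.207% for repeat with ibrutinib against single with DMSO. Unadjusted p below 0.05 was seen in repeat against single peptide with DMSO for *Stim2* (0.00759, adjusted p = 0.151), whose mean length was 4118 ± 294 bases (SD, n = 4) against 4486 ± 187 (SD, n = 5) and which passed without repeat peptide library D. *Nfatc1* was 4589 to 4600 bases long in the 4 repeat peptide DMSO libraries and 4571 to 4575 in the 5 single peptide DMSO libraries. These do not overlap (difference 21.7 bases, exact two-sided permutation p = 0.00794 over 126 splits, the smallest this design allows, unadjusted), while limma gave an adjusted p of 0.605. In repeat peptide ibrutinib libraries the length ranged from 4567 to 4611. A shift of this size could not be assigned to a transcript, since listed transcripts of *Nfatc1* have M21 lengths of 4505, 4591, 4594 and 4604 bases.

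The genes whose log2 CPM followed a member most closely over the 18 libraries were *Smad7*, *Tdrp* and *Itpr2* for *Stim1* (Pearson's r 0.982, 0.980 and 0.976). For *Orai1* they were *Plod3*, *Ccdc184* and *Frmd6* (0.891, 0.873 and 0.870). For *Nfatc1* they were *Nploc4*, *Vps8* and *Ptch1* (0.948, 0.928 and 0.922), for *Nfatc2* *Cyfip2*, *Cic* and *Polr3b* (0.936, 0.936 and 0.932), and for *Nfatc3* they included *Aqr* and *Ano6* (0.944 and 0.941). These correlations describe libraries of 4 groups that share experiments. After group means were subtracted, 0 of the 3 genes nearest to each member were the same. The genes named above still had r from 0.628 (*Frmd6* with *Orai1*) to 0.903 (*Cyfip2* with *Nfatc2*) after that step.

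Other genes of the pathway were taken from 6 lists with 90 genes in all, of which 82 were tested. All 6 lists were chosen with earlier results of these data known. Their counts beside the share of all genes, here and below, are therefore descriptions and no independent evidence about the pathway. With DMSO, 60 of the 82 were called between repeat and single peptide cells (40 higher and 20 lower) and 53 with ibrutinib, beside 47.0% and 38.4% of all genes. Without the list of NFAT target genes the count was 38 of 57 with DMSO, 19 in each direction. Ibrutinib changed 17 of the 82 in repeat peptide cells and 12 in single peptide cells, beside 5.92% and 3.04% of all genes. Without the list of NFAT target genes, it changed 8 of 57 in repeat peptide cells and 0 of 57 in single peptide cells.

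Among the 8 tested partners of STIM, ORAI and calcineurin, 7 were called between repeat and single peptide cells with DMSO, where 47.0% of all tested genes were called. *Saraf*, which encodes a brake on STIM1, fell from 19900 ± 1579 (SD, n = 5) to 9520 ± 1089 (SD, n = 4) normalized counts, 2.09-fold (log2 fold change -1.06, adjusted p = 5.97e-07). *Cracr2a*, encoding a cytosolic regulator of ORAI1, fell 2.32-fold (-1.21, adjusted p = 0.000173). *Ppp3r1*, the regulatory subunit of calcineurin, rose 1.23-fold (0.30, adjusted p = 0.00422) and *Rcan3*, a relative of *Rcan1*, rose 1.25-fold (0.32, adjusted p = 0.0381). *Stimate*, which promotes STIM1 assembly, stood at -0.18 (adjusted p = 0.226). *Ppp3r2*, *Rcan2* and *Cracr2b* were at most 9 expected counts in any library and were not tested.

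With ibrutinib in repeat peptide cells 2 of these 8 partners, *Orai2* and *Saraf*, rose and none fell, beside 5.92% of all genes called. *Saraf* reached 15850 ± 2164 normalized counts (SD, n = 5), 1.66-fold above DMSO (log2 fold change 0.74, SE 0.114, adjusted p = 0.000697). In single peptide cells 0 of the 8 were called. *Orai2* and *Saraf* in repeat peptide ibrutinib cells were still below single peptide DMSO cells, by -0.94 (adjusted p = 0.000192) and -0.33 (adjusted p = 0.0204).

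**Figure D4:**
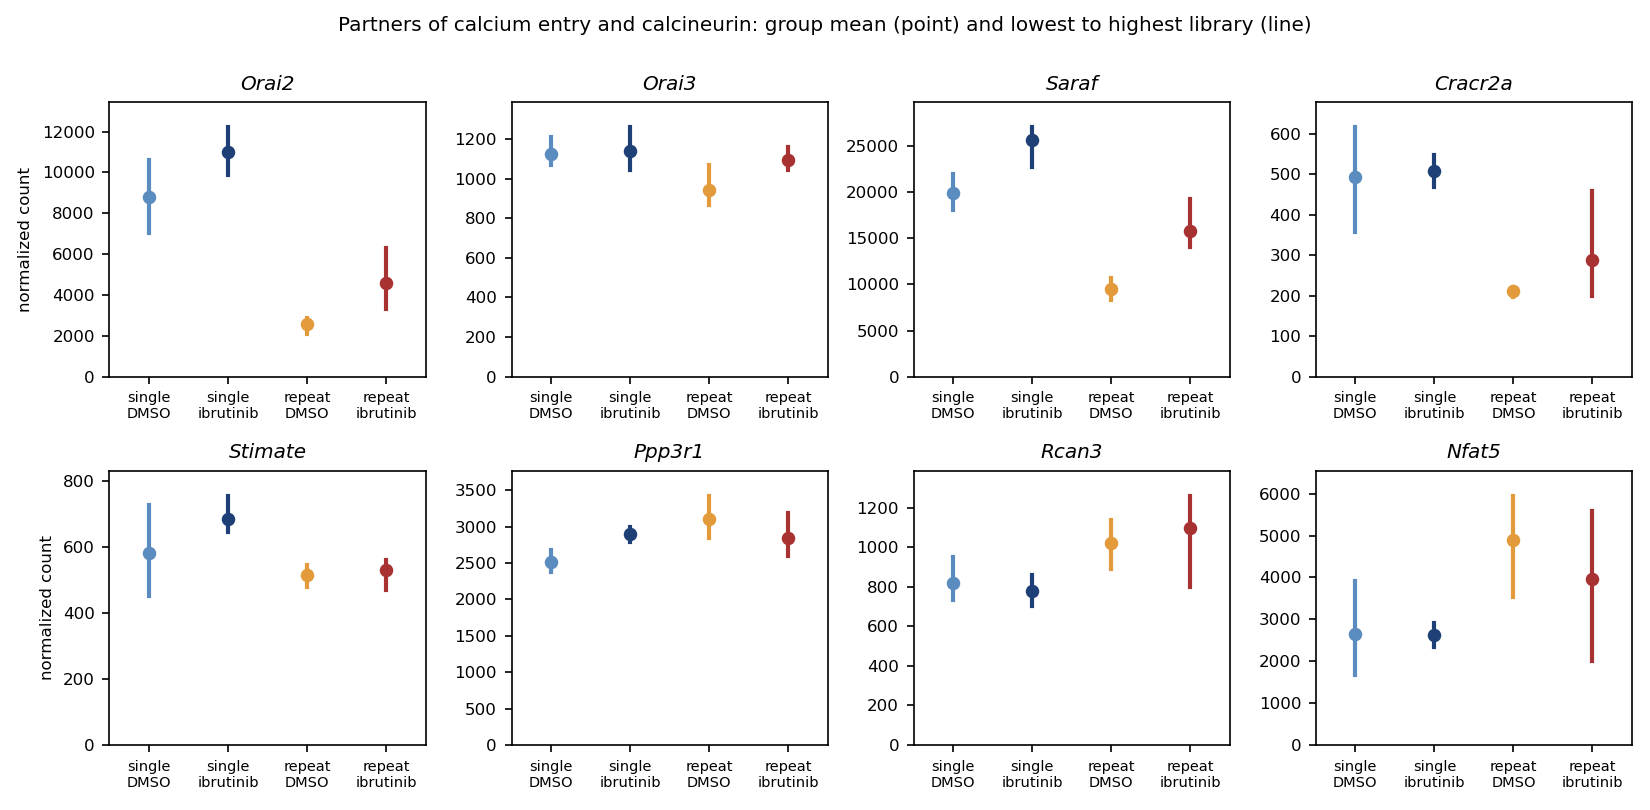
Normalized counts (y axis, from 0) of the 8 tested partner genes by group on the x axis; points are group means and lines run from the lowest to the highest library. *Orai2* runs from 2086 to 2879 in repeat peptide DMSO libraries, from 3306 to 6288 with ibrutinib and from 7022 to 10620 in single peptide DMSO libraries.

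Of the 17 tested genes for calcium release, pumps and channels, 14 were called between repeat and single peptide DMSO cells (8 higher and 6 lower), beside 47.0% of all genes. *Itpr2* and *Itpr3*, receptors through which inositol trisphosphate releases calcium, fell 2.49-fold and 2.27-fold (adjusted p = 1.34e-07 and 3.89e-06). *Kcna3*, a potassium channel that sustains calcium entry, fell by 1.41 on the log2 scale (adjusted p = 3.66e-06). *Mcu*, the calcium channel of mitochondria, rose 2.73-fold (1.45, adjusted p = 6.82e-07), and *Cd38*, which makes the calcium messenger cyclic ADP-ribose, rose 5.74-fold (2.52, adjusted p = 1.33e-07). With ibrutinib in repeat peptide cells 4 of the 17 were called. *Kcna3* (0.80), *Itpr3* (0.62) and *Itpr2* (0.49) rose and *Mcu* (-0.66) fell, with adjusted p of 0.00923 to 0.0224.

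Of the 10 tested kinases and export factors of NFAT, 5 were called between repeat and single peptide DMSO cells, a share close to the 47.0% of all genes. *Dyrk2*, a kinase that phosphorylates NFAT for later kinases, had 591.5 ± 89.5 normalized counts (SD, n = 4) against 2281 ± 198 (SD, n = 5), 3.86-fold lower (adjusted p = 2.41e-09). *Gsk3b* fell by 0.45 on the log2 scale (adjusted p = 0.0169), and *Xpo1*, the exporter that returns NFAT to the cytoplasm, rose by 0.63 (adjusted p = 0.000387). Only *Dyrk2* of these 10 was called for ibrutinib in repeat peptide cells, 1.67-fold higher (0.74, adjusted p = 0.00181). Of 9 regulators of calcineurin, calmodulin genes and immunophilins, 6 were called between repeat and single peptide DMSO cells, beside 47.0%, and 0 for ibrutinib in repeat or single peptide cells. *Fkbp1a*, the receptor of tacrolimus, rose 1.72-fold (adjusted p = 2.03e-05), and *Cabin1*, a calcineurin inhibitor, fell 1.43-fold (adjusted p = 0.00565). Of 13 calmodulin kinases and MEF2 genes 6 were called, also close to 47.0%, with *Camk1d* (-1.34, adjusted p = 1.9e-06) lower in repeat peptide cells and 1.48-fold higher with ibrutinib there (adjusted p = 0.036).

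Genes known to bind or need NFAT in T cells, a list chosen with results of these libraries in view and so no independent evidence of direction were counted last. Of 25 tested, 21 were higher and 1 lower in repeat against single peptide DMSO cells, with a median log2 fold change of 3.05, where 22.8% of all genes were higher and 24.2% lower. *Spp1* (8.03), *Pdcd1* (5.95), *Havcr2* (4.76) and *Lag3* (4.34) had the largest. In single peptide DMSO libraries *Spp1* and *Havcr2* had mean normalized counts of 10.5 and 8.43, with the lowest library at 0. The sizes of these 2 values therefore rest on few reads. Ibrutinib lowered 9 of the 25 in repeat peptide cells, *Ifng* (-1.78), *Nr4a1* (-1.42), *Nr4a3* (-1.32) and *Irf4* (-1.30) the most, with a median of -0.75 over the list, and 12 of the 25 in single peptide cells, with a median of -1.14. Of all tested genes, 1.92% were called lower with ibrutinib in repeat peptide cells and 2.69% in single peptide cells. No member of the list was called higher with ibrutinib in either. *Il2*, the classical NFAT target, had at most 4 expected counts in any library and was not tested.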

How the data were processed

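RNA-seq of 18 libraries was analysed. Per the paper and the labels, the authors made directional libraries from polyadenylated RNA, trimmed reads with Trim Galore and mapped them to GRCm38 with RSEM 1.3.1 and STAR. They deposited, per gene and library, expected counts (estimated counts of reads, which need not be whole), TPM, and gene lengths weighted over transcripts.

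Expected counts were rounded. Of 45706 genes, 45143 matched GENCODE M21, and the 27903 protein-coding or lncRNA genes entered edgeR 4.0.16 (R 4.3.3): filterByExpr (12255 genes kept), TMM, and a robust quasi-likelihood fit of the 4 groups without a block, with Benjamini-Hochberg adjustment. The interaction is the ibrutinib effect in repeat minus that in single peptide cells. Lengths were compared on the log2 scale with limma 3.58.1, and TPM served for levels and shares. Promoters are from RefSeq (GRCm38.p6). Groups came from the labels, and experiments from shared genotype entries, a reading that no label states. Libraries that share an experiment, 24 pairs across groups, all had correlated deviations from their group means (0.16 to 0.494). Among 97 pairs from different experiments, correlations ran from -0.44 to 0.404 (median -0.076), and 7 lay above 0.1. Experiments were therefore used for the paired differences and for the alternative fit with the experiment as a block. The main fit did not use this pairing.

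The members, lists and tests were chosen with earlier results of these data known. The genes named are all members, all partner genes, up to 4 called genes per list by size, and the 3 genes nearest to members called between repeat and single peptide cells with DMSO. A gene nearest to *Nfatc3* and a marker gene are not reported here. The fits were tested on simulated data without an effect of the experiment, so that test does not cover the correlation between libraries of an experiment. Alternatives were DESeq2 1.42.0's size factors and Wald test, no low count filter, all gene types, other thresholds, a length offset, fits of the compared groups, the block, and leaving out each library. Libraries held at least 23445922 expected counts.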

Additional observations from a re-analysis of the deposited data

Results flagged for a closer look

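Over 40 combinations of a member and a group, 3 libraries lay farther from the rest of their group than Dixon's 95% value allows, and chance alone gives such a library in about 1 group of 20. *Nfatc1* in single peptide ibrutinib cells of experiment D had 5171 normalized counts, against 6202 to 6296 in the other 3. *Orai1* in single peptide ibrutinib cells of experiment A had 859 against 696.9 to 719.6. *Ppp3cc* in repeat peptide ibrutinib cells of experiment E had 5682 against 3884 to 4353. Experiment E gave no other library, so the experiment and the group cannot be told apart for it.

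Among the genes of the NFAT target list, the ibrutinib effect differed between repeat and single peptide cells for 4 by the interaction test. *Ccl3* had an interaction of 4.79 (adjusted p = 0.00192), *Xcl1* of 3.74 (adjusted p = 0.0101) and *Ccl4* of 3.16 (adjusted p = 0.011) on the log2 scale. All 3 chemokine genes fell with ibrutinib in single peptide cells, by -5.41, -2.96 and -3.02, and had values of -0.63, 0.78 and 0.15 in repeat peptide cells that did not pass. Mean normalized counts in single peptide ibrutinib libraries were 1.45 for *Ccl3*, 51.3 for *Xcl1* and 7.09 for *Ccl4*. With DMSO they were 66.6, 401.5 and 58.8. The sizes of the falls and interactions of *Ccl3* and *Ccl4* therefore rest on very few reads. *Icos*, a costimulatory receptor gene, had an interaction of -0.78 (adjusted p = 0.0358), with -0.55 in repeat peptide cells.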

How the results depend on the processing

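Over 1610 alternatives for the members' fold changes, 1496 kept their direction and their side of the threshold, 33 lost a call, 16 gained a call and 65 changed sign. Of these alternatives 1080 left out a library, which often lay outside the compared groups and could then hardly move the value. The stricter fold change threshold leaves the value itself unchanged. Much of the agreement in these counts was therefore fixed in advance. The 11 called values kept their direction in all 297 of their alternatives, to which the same limit applies. Values that changed sign were at most 0.12 on the log2 scale to begin with. Standard errors between 2 groups ran from 0.078 to 0.168, from 4 or 5 cultures each, and causes of the changes below were not tested.

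For ibrutinib in repeat peptide cells the number of members called was 0 without the low count filter, 0 with only the compared groups in the fit, 0 at an absolute log2 fold change above 1, 2 with the experiment as a block, 2 by DESeq2's Wald test, and 0 to 2 when a library was left out. At that stricter threshold 0 members were called in the other comparisons, and the other pathway genes called numbered 5 for ibrutinib in repeat peptide cells (17 otherwise), 33 for repeat against single peptide with DMSO (60), 25 with ibrutinib (53), and 20 for repeat with ibrutinib against single with DMSO (48). In the last comparison 1 member was called without the filter, 1 with only the compared groups, and 1 to 3 when a library was left out. With the block, the interaction was called for 1 member and 9 other pathway genes (0 and 4 without). The block, the pairing of libraries by experiment, changed the calls of *Nfatc2* (repeat peptide ibrutinib effect and interaction), *Ppp3ca*, *Nfatc1* and *Nfatc3* given above and no other call of a member. For repeat against single peptide with DMSO, 1 member had a changed gene length by the unadjusted exact permutation test, and 0 to 1 when a library was left out. For each of the 5 members, 0 of the nearest genes were shared after subtracting group means.

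Signs changed as follows. Ibrutinib in repeat peptide cells gave *Rcan1* -0.078 with the block and *Stim2* -0.028 with the length offset. In single peptide cells it gave *Stim2* -0.015 with DESeq2's size factors and -0.015 with its test. Repeat against single peptide with DMSO gave *Ppp3cc* -0.011 without the filter and *Stim2* 0.052 with the offset. With ibrutinib it gave *Ppp3ca* 0.021 (size factors and DESeq2), 0.002 (no filter), 0.001 (all gene types), 0.004 (offset) and 0.024 (compared groups), *Orai1* 0.012 (size factors and DESeq2), 0.013 (block) and 0.014 (compared groups), and with the block *Rcan1* -0.024 and *Stim2* 0.004. Repeat with ibrutinib against single with DMSO gave *Stim2* 0.052 (block) and 0.024 (offset), and the interaction gave *Ppp3cb* -0.003 and *Stim2* -0.073 (offset).

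Leaving out a library changed a sign for *Nfatc3* (-0.026 to 0.142), *Rcan1* (-0.066 to 0.142) and *Ppp3cb* (-0.093 to 0.075) under ibrutinib in repeat peptide cells, *Stim2* (-0.09 to 0.077) in single peptide cells and *Ppp3cc* (-0.071 to 0.085) for repeat against single peptide with DMSO. With ibrutinib it did so for *Nfatc2* (-0.209 to 0.001), *Rcan1* (-0.018 to 0.219), *Ppp3ca* (-0.028 to 0.041), *Orai1* (-0.084 to 0.084) and *Stim2* (-0.091 to 0.063). For repeat with ibrutinib against single with DMSO it did so for *Stim2* (-0.12 to 0.041), and for the interaction for *Rcan1* (-0.223 to 0.009), *Ppp3cb* (-0.042 to 0.11) and *Stim2* (-0.003 to 0.158).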
